A study of Mus musculus with 8 samples.

Results

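The mitochondrial protein import machinery was described here across Myc- and Max-deficient B cells. Its members were the protein-coding genes whose symbols start with Timm or Tomm and a digit, together with Samm50, Mtx1, Mtx2, Chchd4, Gfer, Pmpca, Pmpcb, Grpel1, Grpel2, Hspd1, Hspe1, Hspa9, Dnajc19 and Pam16, chosen by name and not by a measured value. The annotation held 39 such genes, of which 37 were in the deposited table of 15681 genes; Timm8a2 and Tomm20l were not analysed here. All 37 passed the filter of 1 RPM or more in at least 2 libraries, along with 12441 genes in all.

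Mature B lymphocytes had been sorted from mouse spleen, cultured with lipopolysaccharide at 20 µg/ml and interleukin 4 at 20 ng/ml, which activate them, and harvested for RNA sequencing at 72 h. The mice were aged 8 to 10 weeks. DKO cells lacked both Myc and Max, MAX_KO cells lacked Max, MYC_KO cells lacked Myc, and HET cells were the heterozygous control, with 2 libraries in each of the 4 groups. Every group had received both activating agents; the sources used here do not give the Cre driver, the alleles or the mouse strain. Whether both libraries of a group stem from different mice is not stated, and p-values therefore measure only how these libraries spread, which may be technical. Levels are in RPM, estimated reads per 1000000 of an effective library size; they are not divided by gene length, so that levels are compared between libraries and not between genes.

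Most mitochondrial proteins are made in the cytosol and carried into the organelle. They enter through the TOM complex of the outer membrane, after which the TIM23 complex and its ATP-driven motor move presequence proteins into the matrix, the TIM22 complex inserts carriers into the inner membrane, the MIA pathway oxidises small proteins of the intermembrane space, and the SAM complex builds barrel proteins into the outer membrane. In the matrix the processing peptidase removes the presequence and the Hsp60 and Hsp10 chaperonins fold the protein. Myc and Max bind DNA as a dimer, typically at the E-box CACGTG, and activated B cells expand their mitochondria as they grow.

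Promoter sequences are shown for 6 members, chosen because 3 hold a canonical E-box and the others are the member with the lowest mean change, the inner membrane channel and a member that was higher. The sequences are from RefSeq on build GRCm38.p6, read 5′ to 3′ on the strand of the gene within 250 bases before to 50 after the RefSeq transcription start, with annotated untranslated bases left out. Capitals mark CACGTG in the first 3 and CCGGAAG, the core bound by ETS factors, or its complement CTTCCGG, in the last 2; Timm13 held neither.
Tomm20, minus strand, chr8:126945922-126946171: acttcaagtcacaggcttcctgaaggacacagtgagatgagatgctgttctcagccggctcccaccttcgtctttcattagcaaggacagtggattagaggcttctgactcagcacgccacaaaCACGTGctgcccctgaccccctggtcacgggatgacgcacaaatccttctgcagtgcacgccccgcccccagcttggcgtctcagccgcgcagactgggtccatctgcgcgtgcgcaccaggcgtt
Timm9, minus strand, chr12:71136685-71136847: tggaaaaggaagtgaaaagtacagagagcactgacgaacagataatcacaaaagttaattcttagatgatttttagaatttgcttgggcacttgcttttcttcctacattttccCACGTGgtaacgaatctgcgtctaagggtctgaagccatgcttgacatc
Timm8a1, minus strand, chrX:134541866-134541920: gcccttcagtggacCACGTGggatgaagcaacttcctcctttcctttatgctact
Timm13, minus strand, chr10:80900970-80901202: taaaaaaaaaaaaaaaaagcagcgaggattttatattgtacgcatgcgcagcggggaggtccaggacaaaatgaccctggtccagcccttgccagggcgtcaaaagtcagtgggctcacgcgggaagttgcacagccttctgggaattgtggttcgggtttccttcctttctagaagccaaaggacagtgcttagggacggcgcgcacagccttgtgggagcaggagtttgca
Timm23, minus strand, chr14:32201899-32201948: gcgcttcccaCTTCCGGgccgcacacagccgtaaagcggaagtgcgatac
Tomm70a, plus strand, chr16:57121464-57121702: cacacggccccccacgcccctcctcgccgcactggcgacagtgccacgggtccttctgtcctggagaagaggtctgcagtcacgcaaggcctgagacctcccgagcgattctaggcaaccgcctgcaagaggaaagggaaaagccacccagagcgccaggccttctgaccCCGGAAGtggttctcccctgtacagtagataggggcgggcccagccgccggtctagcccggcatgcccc

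The 8 libraries held 14.88 to 17.91 M estimated reads. For 2 libraries the labels conflict: the library titled DKO, replicate 1 here, is described as MYC_KO, and the library titled MYC_KO, replicate 2 here, is described as DKO. Groups follow the titles, which are also the column names of the table. Max was at 28.6 and 31.2 RPM in DKO, 16.4 and 15.5 in MAX_KO, 70.4 and 59.8 in MYC_KO, and 55.0 and 54.5 in HET. Under the titles both DKO libraries were below HET and both MYC_KO libraries above it. Under the descriptions a DKO library would be at 59.8, above HET, and a MYC_KO library at 28.6. The Max levels thus go with the titles and not with the descriptions. Myc was at 38.7 and 55.3 RPM in DKO, 192 and 176 in MAX_KO, 48.3 and 55.7 in MYC_KO, and 111 and 116 in HET. Reads over a whole gene do not tell an intact from a shortened transcript. B cell markers were detected in all libraries, with 6 of 6 genes summing to 6000 to 7290 RPM in the knock-out libraries and 4920 and 4850 in HET. Of 8 T cell markers 6 rose in the mean of the knock-out groups (Cd3d, Cd3e, Cd3g, Cd4, Cd8a and Lck) and 1, Thy1, fell; their sum, most of it Thy1 and Lck, was 186 to 301 RPM in the knock-out libraries and 362 and 317 in HET. Cytotoxic cell markers (5 of 6, Ncr1 at 0 in both HET libraries) summed to 43.3 to 211 RPM in the knock-out libraries and 8.84 and 6.49 in HET. Gzma and Gzmb made up most of that sum in the knock-out libraries. Both rose in the mean, as did Nkg7, and Prf1 did not pass (log2 change 0.97, limma adjusted p = 0.0512). Myeloid markers (4 of 7) summed to 8.79 to 29.9 RPM in the knock-out libraries and 2.44 and 3.39 in HET. Adgre1 made up most of it in the knock-out libraries and rose in the mean, as did Itgam. Lyz2 and Csf1r reached at most 0.392 and 0.204 RPM and did not pass the filter. Of 5 plasma cell markers Xbp1 and Jchain fell in the mean, Jchain with 281 and 260 RPM in MYC_KO and 210 and 255 in HET, and Sdc1, Irf4 and Prdm1 did not pass (log2 change 0.30, 0.25 and 0.07); the sum was 574 to 1100 RPM in the knock-out libraries and 1260 and 1210 in HET. The part of these markers in the results below was not tested.

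Import transcripts were lower in the knock-out groups more often than higher. In DKO 10 of the 37 members fell against HET and 2 rose, where 16.8% of all tested genes fell and 21.9% rose (limma adjusted p under 0.05). In MAX_KO 16 members fell and 0 rose (17.4% and 22.4% of all genes), and in MYC_KO 19 fell and 1 rose (21.4% and 24% of all genes). Over the mean of the 3 knock-out groups 19 fell and 1 rose, against 23.4% and 27.3% of all genes. The 3 comparisons share the same HET libraries. The members together made up 0.282% and 0.284% of the reads in DKO, 0.26% and 0.256% in MAX_KO, 0.252% and 0.257% in MYC_KO, and 0.295% and 0.28% in HET. These are shares of all reads and not of the effective size used for levels and tests. In RPM the members summed to 2763 and 2784 in DKO, 2582 and 2525 in MAX_KO, 2448 and 2456 in MYC_KO, and 3220 and 2919 in HET. Fewer cells of a type and less RNA per cell cannot be told apart in such bulk samples.

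The changes were moderate in size. The median log2 change over the members was -0.19 in DKO, -0.32 in MAX_KO, -0.33 in MYC_KO and -0.28 for the mean of the knock-out groups, beside 0.02, 0.02, 0 and 0.01 over all tested genes. Mean log2 changes ran from -0.75 for Timm13 to 0.23 for Timm17a, and 30 of 37 were below 0, as were 49.3% of all genes. In 20 members (54.1%; 26.5% of all genes) all 6 knock-out libraries lay below both HET libraries. In Mtx2 and Tomm70a (5.41%; 29.2% of all genes) they lay above both. The 10 members that fell in each of the 3 knock-out groups were Tomm20, Tomm6, Gfer, Timm13, Timm8b, Timm10b, Timm17b, Timm23, Timm44 and Hspe1 (27%, beside 12.1% of all genes), and 0 rose in each (17.3% of all genes). Of these, Timm13 and Timm44 kept the call in all 3 groups under all 23 alternatives, whereas Timm23 kept it in DKO in 10 of 23, Tomm6 in MAX_KO in 11, Timm10b in MAX_KO in 16 and Timm17b in MAX_KO in 18.

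**Figure D1:**
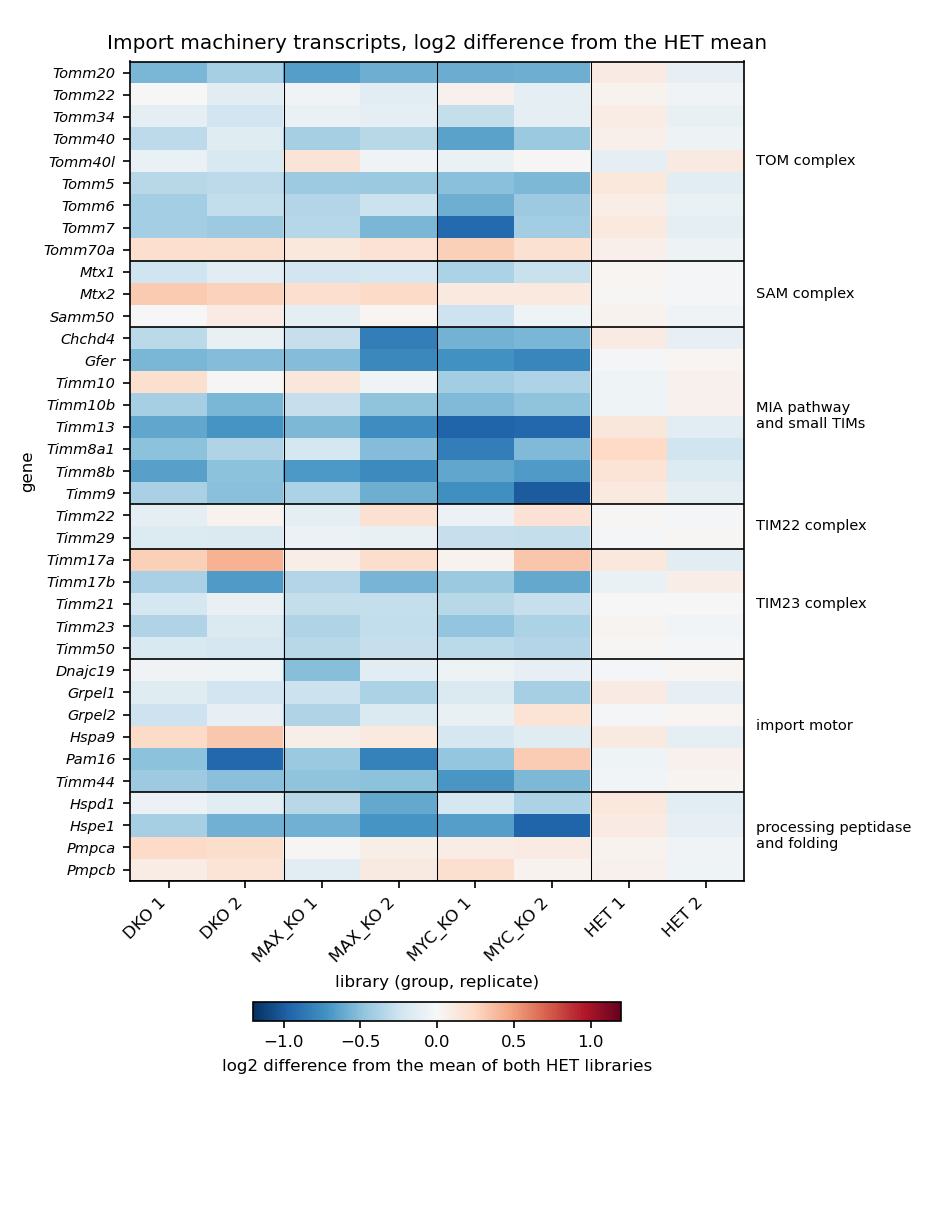
Log2 difference of each of the 37 import genes (rows, by complex) from the mean of both HET libraries, in each of the 8 libraries (columns, DKO, MAX_KO, MYC_KO, HET); blue is lower and red higher. The small TIM and TOM rows are mostly blue in the 6 knock-out libraries, while Tomm70a and Mtx2 are red in all 6.

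These counts rested in part on single HET libraries. Leaving out a HET library, or a library of the knock-out group compared, also lowered the number of calls over all genes. Such losses were therefore not limited to the members. Without HET replicate 1, 4 members fell in DKO, 5 in MAX_KO, 10 in MYC_KO and 8 in the mean. Without HET replicate 2 the counts were 7 in DKO, 8 in MAX_KO, 13 in MYC_KO and 14 in the mean. In MAX_KO 10 members fell without MAX_KO replicate 1 and 6 without MAX_KO replicate 2, and in DKO 6 fell without DKO replicate 2. With groups from the descriptions 11 members fell in DKO, 12 in MAX_KO, 15 in MYC_KO and 18 in the mean, and without the 2 disputed libraries 7, 13, 15 and 17. When every library was scaled to the same total, the median change of all genes moved to 0.15 in DKO, 0.13 in MAX_KO, 0.15 in MYC_KO and 0.14 in the mean. The members then fell and rose in 7 and 5 cases in DKO, 8 and 2 in MAX_KO, 14 and 2 in MYC_KO, and 14 and 5 in the mean. Of all called genes, 68.9%, 66.7%, 66.5% and 66% were then higher in DKO, MAX_KO, MYC_KO and the mean, against 56.6%, 56.2%, 52.9% and 53.8% as reported. Reads of genes encoded by mitochondrial DNA were 2.21% to 2.96% in the knock-out libraries and 5.69% and 4.93% in HET, and the total divided by the effective size was 0.956 to 0.995 in the knock-out libraries and 1.092 and 1.043 in HET. Timm13, Gfer, Hspe1, Timm8b, Tomm20 and Timm44 fell in the mean under all 23 alternatives of scaling, filter, grouping, libraries and fit. Timm13 and Timm44 did so in DKO as well, 5 members in MAX_KO and 7 in MYC_KO.

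**Figure D2:**
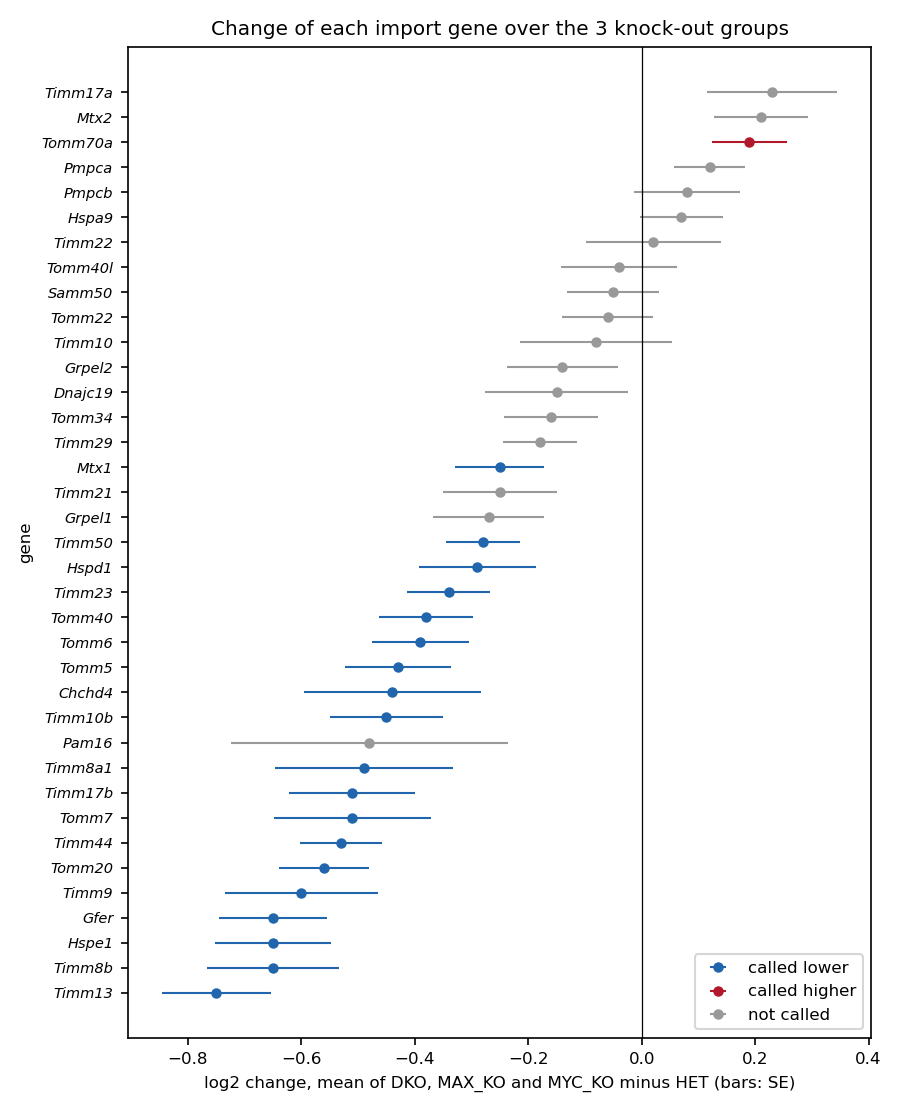
Limma log2 change of each import gene for the mean of DKO, MAX_KO and MYC_KO minus HET (x axis), with bars of 1 standard error; blue points fell, red rose and grey did not pass an adjusted p of 0.05. Points run from Timm13 at -0.75 to Timm17a at 0.23, and Tomm70a is the red one.

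At the entry gate, 5 of the 9 TOM genes fell in the mean of the knock-out groups and 1 rose (median log2 change -0.38); without HET replicate 1, 1 fell and 0 rose. Tomm20 (ENSMUSG00000093904, chromosome 8, 126930667 to 126945844), the receptor that binds presequences, was at 109 and 121 RPM in DKO, 100.4 and 105 in MAX_KO, 105 and 106 in MYC_KO, and 171 and 148 in HET. All 6 knock-out libraries lay below both HET libraries. Its log2 change was -0.47 in DKO, -0.63 in MAX_KO, -0.59 in MYC_KO and -0.56 ± 0.0792 (SE) in the mean (limma adjusted p = 0.000657); the call in DKO was lost without HET replicate 1 (0.0583) and without the 2 disputed libraries (0.0528). Tomm40, the channel of the complex, was at 90.6 and 102 RPM in DKO, 85.4 and 89.3 in MAX_KO, 72.3 and 82.4 in MYC_KO, and 117 and 108 in HET. It fell by 0.38 on the log2 scale in the mean (limma adjusted p = 0.006), and the groups did not overlap.

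The small TOM subunits moved the same way. Tomm5, Tomm6 and Tomm7, which sit around the channel and act in its assembly and stability, changed by -0.43, -0.39 and -0.51 in the mean (limma adjusted p = 0.00585, 0.00564 and 0.0147). Tomm7 ranged from 34.6 to 51.8 RPM in the knock-out libraries, with 71.4 and 60.6 in HET, and had no overlap between them. The calls of Tomm40, Tomm5, Tomm6 and Tomm7 in the mean were lost without HET replicate 1 (adjusted p = 0.0809, 0.0923, 0.0849 and 0.158). In MAX_KO Tomm6 had an adjusted p of 0.0483, which was 0.166 without MAX_KO replicate 1 and 0.266 without HET replicate 1. Exons of Tomm6 overlap Gm21981 on the same strand over 76% of their length, so that the reads of both are uncertain.

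Tomm70a (ENSMUSG00000022752, chromosome 16, 57121703 to 57156705) was on the other side of HET. This gene encodes the receptor that takes carrier precursors from cytosolic chaperones. It was at 139 and 138 RPM in DKO, 132 and 135 in MAX_KO, 147 and 137 in MYC_KO, and 126 and 115 in HET. All 6 knock-out libraries were above both HET libraries, by 0.19 ± 0.0665 in the mean (limma adjusted p = 0.0396). That call was kept in 10 of 23 alternatives and among the 8 fits that leave out a library it passed only without MYC_KO replicate 2 (adjusted p up to 0.287, without HET replicate 2). Tomm22, the central receptor, Tomm34, a cytosolic cochaperone, and Tomm40l, a paralog of Tomm40, had mean changes of -0.06, -0.16 and -0.04 and did not pass (limma adjusted p = 0.538, 0.139 and 0.784). Tomm34 is counted with the TOM genes above by its symbol and is not a subunit of the complex.

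**Figure D3:**
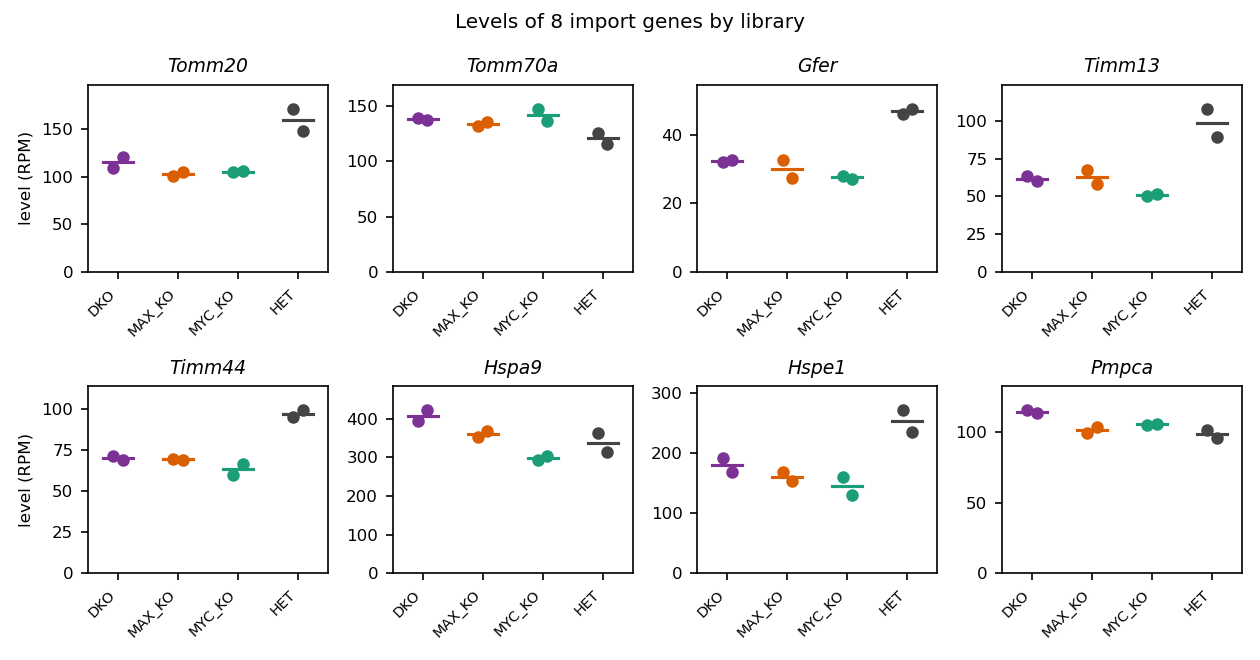
Level in RPM (y axis, from 0) of 8 import genes in each library, by group (x axis); points are libraries and bars are group means of 2. Tomm20, Gfer, Timm13, Timm44 and Hspe1 are lower in every knock-out library than in HET, Tomm70a is higher, and Hspa9 and Pmpca overlap HET.

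Among the 8 genes of the MIA pathway and the small TIM chaperones, 4 fell in DKO, 6 in MAX_KO and 7 in both MYC_KO and the mean, with a median mean change of -0.55. Without HET replicate 1 the counts were 2, 2, 4 and 4, without HET replicate 2 they were 2 in DKO and 3 in MAX_KO, and without MAX_KO replicate 2 they were 3 in MAX_KO. Whether these genes fell more often than those of the other complexes was not tested. Timm13 (ENSMUSG00000020219, chromosome 10, 80899450 to 80900969), which with its Timm8 partner guides precursors across the intermembrane space, was at 63.6 and 59.9 RPM in DKO, 67.4 and 58.4 in MAX_KO, 50.3 and 51.3 in MYC_KO, and 108 and 89.2 in HET. It was lower in all 6 knock-out libraries, and MYC_KO held the lowest values. Its log2 change was -0.67 in DKO, -0.64 in MAX_KO, -0.95 in MYC_KO and -0.75 ± 0.0963 in the mean (limma adjusted p = 0.000423). Timm8b, one of those partners, was at 20.7 and 23.1 RPM in DKO, 20.2 and 19.2 in MAX_KO, 21.1 and 20.3 in MYC_KO, and 36.4 and 29.0 in HET. It fell by 0.65 ± 0.117 in the mean (adjusted p = 0.00236), with no overlap, although the single-group calls of Timm8b were lost without HET replicate 1 (adjusted p = 0.122 in DKO, 0.0514 in MAX_KO and 0.0658 in MYC_KO), in DKO also without DKO replicate 1 (0.0821).

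Gfer (ENSMUSG00000040888, chromosome 17, 24693187 to 24696156) and Chchd4 form the disulfide relay, in which Chchd4 oxidises incoming proteins and Gfer reoxidises Chchd4. Gfer was at 31.9 and 32.6 RPM in DKO, 32.6 and 27.4 in MAX_KO, 28.1 and 27.1 in MYC_KO, and 46.1 and 47.5 in HET. Both HET libraries were above every knock-out library. Gfer changed by -0.54 in DKO, -0.65 in MAX_KO, -0.76 in MYC_KO and -0.65 ± 0.0945 in the mean (limma adjusted p = 0.000808), and the DKO call was lost without HET replicate 2 (0.0547). Chchd4 was at 22.6 and 26.4 RPM in DKO, 23.1 and 15.8 in MAX_KO, 18.9 and 19.2 in MYC_KO, and 30.3 and 26.2 in HET. DKO replicate 2 overlapped HET replicate 2 in Chchd4, and its mean change of -0.44 (adjusted p = 0.0434) was called in 13 of 23 alternatives.

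Timm9 and Timm10 form the hexamer that escorts carriers, and Timm10b links it to the TIM22 complex. Timm9 was at 16.1 and 14.9 RPM in DKO, 16.2 and 14 in MAX_KO, 12.6 and 10.5 in MYC_KO, and 22.8 and 19.5 in HET. It was lower in every knock-out library, by 0.60 ± 0.135 in the mean (limma adjusted p = 0.00671; 0.0941 without HET replicate 1), and its call in MAX_KO was held in 11 of 23 alternatives. Timm10 did not pass. It was at 12.6 and 11.1 RPM in DKO, 12.2 and 10.7 in MAX_KO, 8.2 and 8.6 in MYC_KO, and 10.7 and 11.4 in HET, with a mean change of -0.08 (adjusted p = 0.634). Timm10b fell by 0.45 (adjusted p = 0.00627; 0.0714 without HET replicate 2), with 24.2 to 29.2 RPM in the knock-out libraries and 34.3 and 36.7 in HET. Timm8a1 fell by 0.49 (adjusted p = 0.0301), a call held in 18 of 23 alternatives, with 20.6 to 31.7 RPM in the knock-out libraries and 43.3 and 31.0 in HET, so that MAX_KO replicate 1 overlapped HET.

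Among the 5 TIM23 genes 3 fell in the mean (median -0.28), against 1 without either HET library. Timm23, the channel subunit, was at 107 and 121 RPM in DKO, 107 and 111 in MAX_KO, 99.2 and 105 in MYC_KO, and 140.2 and 134 in HET. It fell by 0.34 (limma adjusted p = 0.00548; 0.0685 without HET replicate 1), and by 0.27 in DKO (0.046; 0.239 without DKO replicate 1 and 0.205 without HET replicate 1), with no overlap between knock-out and HET libraries. Timm50, the receptor that faces the intermembrane space, fell by 0.28 (adjusted p = 0.00836; 0.0767 without HET replicate 1, 0.0577 without HET replicate 2 and 0.0832 with the same total per library). Timm21, a link between TOM and TIM23, was at 17.0 to 20.1 RPM in the knock-out libraries and 21.3 and 21.4 in HET and did not pass (log2 change -0.25, adjusted p = 0.0715).

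The paralogs Timm17a and Timm17b, alternative partners of Timm23, had changes of opposite sign. Timm17b, on chromosome X, was at 45.8 and 37.5 RPM in DKO, 47.1 and 40.9 in MAX_KO, 44 and 39.5 in MYC_KO, and 56.8 and 63.8 in HET. Each knock-out library was below both HET libraries, and Timm17b fell by 0.51 in the mean (limma adjusted p = 0.00573; 0.074 without HET replicate 2). Timm17a was at 38.7 and 42.2 RPM in DKO, 33.2 and 36.4 in MAX_KO, 32.5 and 39.8 in MYC_KO, and 34.4 and 28.9 in HET. Its change of 0.23 did not pass (adjusted p = 0.132; 0.0304 with the same total per library). As a log2 ratio of Timm17a to Timm17b, the 6 knock-out libraries averaged -0.2 ± 0.26 (SD) and the 2 HET libraries -0.93 ± 0.3. The difference was 0.74 without overlap (two-sided exact permutation p = 0.0357, the smallest that 28 splits can give, and 0.0714 adjusted over 8 pairs). Such a ratio does not remove a change that goes with transcript length (median lengths 636 and 1410 bases). The part of length in this and the other pairs was not tested.

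**Figure D4:**
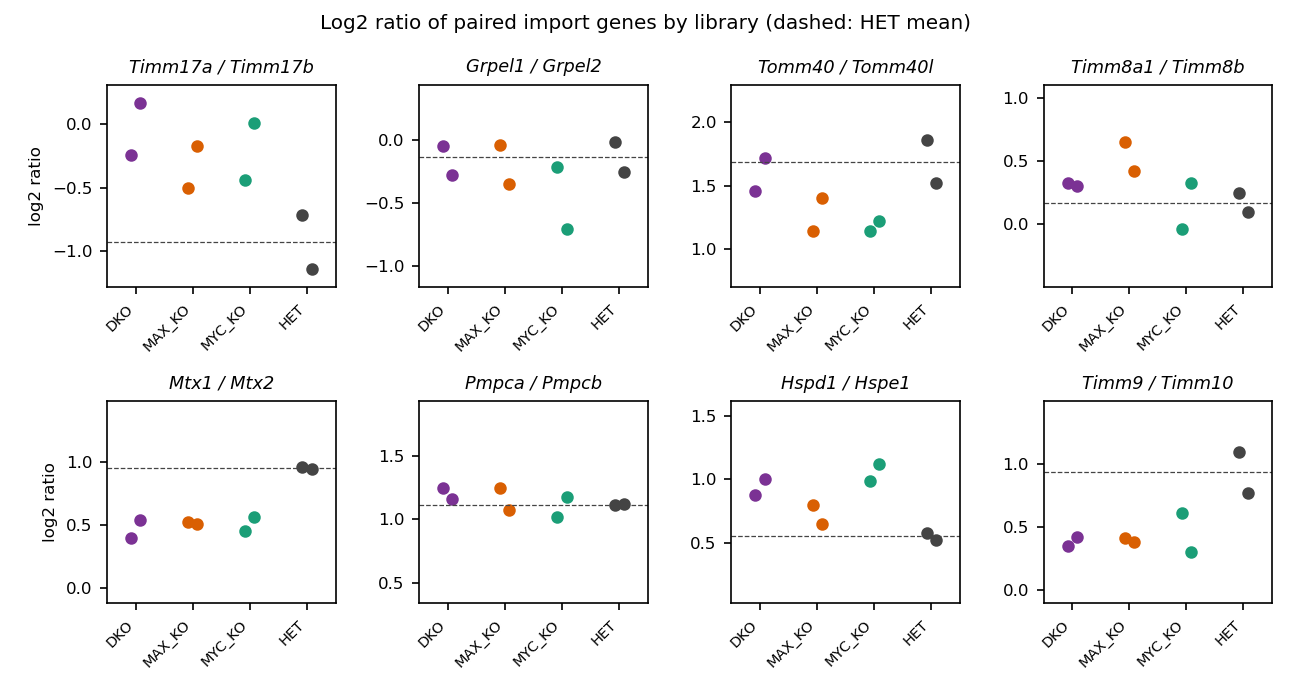
Log2 ratio of RPM of 8 pairs of import genes (y axes) in each library, by group (x axes), with the HET mean as a dashed line. In Timm17a/Timm17b and Hspd1/Hspe1 all 6 knock-out libraries lie above both HET libraries, in Mtx1/Mtx2 and Timm9/Timm10 below, and the other 4 pairs overlap.

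A further 3 of the 8 pairs separated the libraries in the same way. Timm9 over Timm10 averaged 0.41 ± 0.11 in the knock-out libraries and 0.93 ± 0.23 in HET. Mtx1 over Mtx2 averaged 0.5 ± 0.06 in the knock-out libraries and 0.95 ± 0.01 in HET, and Hspd1 over Hspe1 0.91 ± 0.17 in the knock-out libraries and 0.55 ± 0.04 in HET. Each gave the smallest exact permutation p of 0.0357 and an adjusted 0.0714, so that 0 of 8 pairs passed after adjustment and 4 of 8 had an unadjusted p under 0.05. Grpel1 over Grpel2, Tomm40 over Tomm40l, Timm8a1 over Timm8b and Pmpca over Pmpcb overlapped, with differences of -0.13, -0.34, 0.16 and 0.04.

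Of the 3 SAM genes 1 fell in the mean. Samm50, the barrel assembly channel, had a mean change of -0.05 (adjusted p = 0.628). Mtx1, one of its metaxin partners, fell by 0.25 (limma adjusted p = 0.0304, called in 16 of 23 alternatives), with 39.3 to 46.6 RPM in the knock-out libraries and 51.9 and 50.6 in HET. Mtx2, the other metaxin, was at 32.9 and 32.1 RPM in DKO, 30.4 and 31.0 in MAX_KO, 28.7 and 28.9 in MYC_KO, and 26.6 and 26.3 in HET. All knock-out libraries were above HET, DKO the highest, and Mtx2 rose in DKO by 0.30 (adjusted p = 0.0487), but it passed in none of the 8 fits that leave out a library (adjusted p up to 0.164, without HET replicate 2). Of the TIM22 genes, Timm22, the carrier insertase, had a mean change of 0.02 and did not pass. Timm29, a scaffold of that complex in human cells, fell in MYC_KO (log2 change -0.28, limma adjusted p = 0.0206), a call held in 14 of 23 alternatives and lost without MYC_KO replicate 1 or 2 (0.0631 and 0.0691), without HET replicate 1 or 2 (0.0824 and 0.0973) and with groups from the descriptions (0.0871). It was at 59.8 to 69.4 RPM in the knock-out libraries and 72.2 and 73.6 in HET, without overlap.

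In the import motor 1 of 6 genes fell in the mean. Timm44 (ENSMUSG00000002949, chromosome 8, 4259731 to 4275913), which tethers the motor to the channel, was at 71.6 and 69.0 RPM in DKO, 69.8 and 69.4 in MAX_KO, 59.9 and 66.9 in MYC_KO, and 95.5 and 99.3 in HET. Both HET libraries stood above all 6 others. Timm44 changed by -0.47 in DKO, -0.48 in MAX_KO, -0.62 in MYC_KO and -0.53 ± 0.0725 in the mean (limma adjusted p = 0.000609). Hspa9, the mitochondrial Hsp70 that drives the motor, was at 395.5 and 422 RPM in DKO, 354 and 367 in MAX_KO, 293 and 304 in MYC_KO, and 363 and 313 in HET. DKO lay above HET and MYC_KO below it, with a change of 0.28 in DKO (adjusted p = 0.039), 0.10 in MAX_KO (0.417) and -0.17 in MYC_KO (0.145). The DKO call of Hspa9 was lost without DKO replicate 1, DKO replicate 2 or HET replicate 2 (adjusted p = 0.0749, 0.176 and 0.229) and was not made with groups from the descriptions (0.724). Grpel1 and Grpel2, the nucleotide exchange factors of Hspa9, and Dnajc19 and Pam16, of the J-domain pair that controls it, did not pass in any comparison with HET. Grpel1 was at 44.6 to 53.0 RPM in the knock-out libraries and 63.4 and 54.9 in HET, without overlap. Its mean change was -0.27 (limma adjusted p = 0.0517), called lower in 8 of 23 alternatives. Grpel2 and Dnajc19 had mean changes of -0.14 and -0.15 (adjusted p = 0.278 and 0.353). Pam16 was at 4.4 to 10.6 RPM in the knock-out libraries and 8.3 and 8.9 in HET, with overlap, and its standard error was the largest of the 37 members (mean change -0.48 ± 0.244).

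Downstream of import, the chaperonins fell and the peptidase did not pass. Hspe1 (ENSMUSG00000073676, chromosome 1, 55088132 to 55091307), the Hsp10 lid, was at 191 and 168.5 RPM in DKO, 168 and 154 in MAX_KO, 159.8 and 129.6 in MYC_KO, and 270.5 and 234 in HET. The lowest HET library exceeded the highest knock-out library. It changed by -0.49 in DKO, -0.65 in MAX_KO, -0.81 in MYC_KO and -0.65 ± 0.103 in the mean (limma adjusted p = 0.00125); the DKO call was lost without DKO replicate 2 (0.0946) and without HET replicate 1 (0.123). Hspd1, the Hsp60 barrel, was at 352 and 336 RPM in DKO, 293.5 and 240.2 in MAX_KO, 318 and 282.5 in MYC_KO, and 404 and 335 in HET. DKO overlapped HET in Hspd1, and its mean change of -0.29 (adjusted p = 0.046) was called in 11 of 23 alternatives. Hspd1 and Hspe1 are divergent neighbours whose annotated starts lie 111 bases apart and whose exons overlap by 112 bases, and both have processed pseudogenes that were not analysed here. Pmpca and Pmpcb, the subunits of the processing peptidase, had mean changes of 0.12 and 0.08 (adjusted p = 0.156 and 0.53); with the same total per library Pmpca rose by 0.24 (adjusted p = 0.0107).

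Between knock-out groups 0 of 37 members passed. Among all genes, 0.458% passed in DKO against MYC_KO, 0.0402% in DKO against MAX_KO and 4.13% in MAX_KO against MYC_KO (limma). Unadjusted limma p was under 0.05 in 6, 2 and 6 members of these comparisons. The shares of all genes above are for adjusted p, and the share under the unadjusted threshold was not counted. Whether 6, 2 and 6 members are more than among all genes can therefore not be told. Hspa9 in DKO against MYC_KO came closest to passing, with a difference of 0.45 ± 0.0892 (adjusted p = 0.0907). Timm10 differed by 0.50 ± 0.164 between DKO and MYC_KO (adjusted p = 0.264) and by 0.44 ± 0.164 between MAX_KO and MYC_KO (0.188). A p that missed the threshold does not show that the groups were alike.

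The sum of both single knock-out changes was also set against the DKO change. In 14 of 37 members (12.4% of all genes) the DKO change lay above that sum, and in 0 (15% of all genes) below it. A member that changes alike in all knock-out groups departs from the sum by as much, with the opposite sign. Since most members had changes below 0, these counts in part restate the falls. The shares of all genes include genes that rose and are not a matched background. For Hspe1 the departure was 0.97 ± 0.178 (limma adjusted p = 0.00642), with changes of -0.49 in DKO, -0.65 in MAX_KO and -0.81 in MYC_KO. For Timm13 it was 0.93 ± 0.167 (adjusted p = 0.00591), for Gfer 0.87 ± 0.164 (0.0071) and for Tomm20 0.75 ± 0.137 (0.00622). With groups from the descriptions the count was 4, with the replicate block 2, and without the 2 disputed libraries 8. It was 5 without HET replicate 1, 7 without DKO replicate 2 or MAX_KO replicate 2, 8 without DKO replicate 1 and 9 without MYC_KO replicate 2, and 11 without each of the other 3 libraries.

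Promoter windows were found for 32 of the 37 members and 9462 of the tested genes, and motifs were searched on both strands over the full windows. CACGTG was in 5 members (15.6%), Hspd1, Timm10, Timm8a1, Timm9 and Tomm20, and in 12.1% of tested genes and 7.2% of all 32851 windows. In Timm9 it stood at -58 and -1 from the start, in Tomm20 at -126, in Hspd1 at -80, in Timm10 at 29, and in Timm8a1 at -236 and 25. In the mean of the knock-out groups 4 of these 5 members fell, and 14 of the 27 without it (21.0% and 24.3% of all genes). The variant CACGCG, a weaker E-box that cannot overlap CACGTG, was in 11 members (34.4%; 20.4% of tested genes), among them Timm13 at -117. CCGGAAG was in 15 members (46.9%; 21.5% of tested genes), 6 of which fell, as did 12 of the 17 without it (24.2% and 23.8% of all genes). The YY1 and NRF1 core motifs were each searched as a fixed string, with no variant bases allowed. The YY1 string was in 2 members, Mtx1 and Timm50 (6.2%, beside 1.9% of tested genes). The NRF1 string was in 0 members (2.5% of tested genes). Variant forms of the NRF1 site were not searched, so that this 0 does not show that the windows lack such sites. All motif matches given here are letters in a window and not measured binding.

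Members with short transcripts fell more often than those with long ones, as did genes in general. By the median length of their protein-coding transcripts, 10 of 14 members under 1 kb fell (38.7% of all protein-coding genes of that length), 7 of 10 from 1 to 2 kb (29.4%), 2 of 11 from 2 to 4 kb (18.6%) and 0 of 2 above 4 kb (11.2%). The median counts every annotated protein-coding transcript alike and may differ from the length of the main one. For Hspd1 it was 863 bases, where the exons of the gene cover 2642. Spearman's rho between length and the mean log2 change was 0.38 over the 37 members and 0.3 over 11270 protein-coding genes, in which all points share the same 8 libraries. The median change of all genes was -0.21 under 1 kb, -0.11 from 1 to 2 kb, 0.1 from 2 to 4 kb and 0.37 above, and the part of length in the members' changes was not tested. Of the 37 members, 30 lay below the median of their length range and 7 above it, namely Timm10, Timm17a, Timm22, Pmpcb, Tomm22, Mtx2 and Pmpca.

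**Figure D5:**
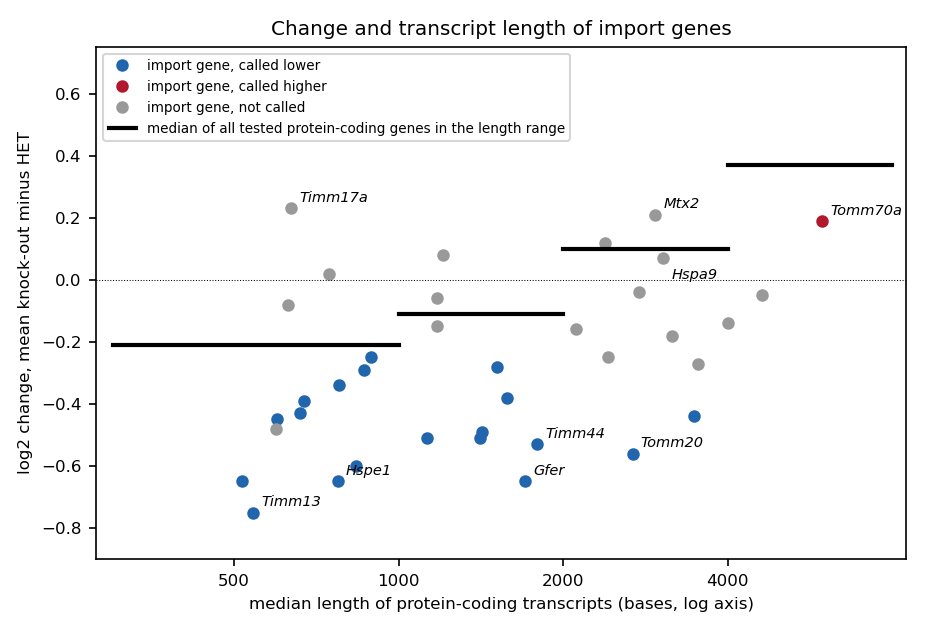
Median length of the protein-coding transcripts of each import gene (x axis, bases, log scale) against its mean log2 change (y axis); blue genes fell, red rose, grey did not pass, and black bars mark the median of all tested protein-coding genes in each length range. Most blue points lie under 2 kb, where the bars are at -0.21 and -0.11.

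Other genes of the pathway went both ways in the mean of the knock-out groups, where 23.4% of all genes fell and 27.3% rose. Of 15 other import and insertion factors 4 fell and 3 rose (median log2 change 0.03), against 2 and 1 without HET replicate 1 and 3 and 6 with the same total per library. Pitrm1, the protease that clears cleaved presequences, was at 117 and 109.9 RPM in DKO, 81.7 and 90.8 in MAX_KO, 128 and 119.9 in MYC_KO, and 59 and 60.3 in HET, and rose by 0.84 (limma adjusted p = 7.21e-05). Romo1, a small inner membrane protein linked to TIM23, fell by 0.62 (adjusted p = 0.00193) and Immp2l, a subunit of the inner membrane peptidase, by 0.65 (0.00434). Of 12 cytosolic chaperones of precursors 3 fell and 2 rose (median -0.11), 1 and 2 without HET replicate 1. Bag1, a cochaperone of Hsp70, fell by 0.53 (adjusted p = 0.000313), while the ubiquilins Ubqln2 and Ubqln1, which bind precursors that fail to insert, rose by 0.59 and 0.51 (0.000502 and 0.00178).

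Inside the organelle, 7 of 15 chaperones and proteases fell and 2 rose (median -0.20), a count that was 2 and 1 without HET replicate 1. Lonp1, the main matrix protease, was at 105.5 and 123 RPM in DKO, 117 and 111.4 in MAX_KO, 84.9 and 93.3 in MYC_KO, and 196 and 194 in HET, and fell by 0.89 (limma adjusted p = 7.95e-05). Htra2, a protease of the intermembrane space, fell by 0.76 (0.000285) and Yme1l1, the inner membrane protease that degrades import subunits, rose by 0.54 (0.00099). Of 10 MICOS and porin genes 3 fell and 0 rose (median -0.19): Vdac1, the main pore of the outer membrane, by 0.59 (0.000515), and the MICOS subunits Minos1 by 0.50 (0.00256) and Chchd6 by 0.51 (0.0138; 0.102 without HET replicate 1 and 0.0805 without HET replicate 2). Of 15 regulators of mitochondrial biogenesis and stress 2 fell and 5 rose (median 0.08), the 5 becoming 2 without HET replicate 1, 2 without HET replicate 2 and 3 without the 2 disputed libraries. Gabpa, an ETS factor of nuclear genes for mitochondrial proteins, was at 98 and 100.1 RPM in DKO, 98.6 and 102 in MAX_KO, 95 and 92.5 in MYC_KO, and 62.9 and 61.4 in HET, and rose by 0.65 (0.000117). Atf5, a factor of the mitochondrial stress response, fell by 0.71 (0.000449). Pprc1, a coactivator of the PGC-1 family, was at 111.3 and 114 RPM in DKO, 106 and 115 in MAX_KO, 77.4 and 76 in MYC_KO, and 80.4 and 74.8 in HET; its mean change was 0.34 (0.00368), with MYC_KO in the range of HET, and the call was lost with groups from the descriptions (0.131) and without HET replicate 2 (0.0517).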

How the data were processed

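RNA of 8 libraries of splenic B cells was sequenced. RSEM 1.2.3, cutadapt, CASAVA 1.8 and build GRCm38 are named per the submitters' processing notes; the sources used here do not give the order of the tools, their settings, the annotation or the strand. The values deposited by the authors are log2 values, in 1 table. Each equals log2 of (estimated reads + 0.5) per 1000000 of an effective library size: the lowest value of a library was taken as 0 reads, which made the others multiples of 0.01 read, and RPM were computed from these reads. A count test was not run, since 69.1 to 72.1% of values were whole.

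Symbols, coordinates and transcript lengths came from GENCODE vM21 (GRCm38). The genes that reached 1 RPM in 2 or more libraries were fitted in 1 limma model of the 4 groups (limma 3.58.1, R 4.3.3, eBayes with a mean-variance trend, 4 residual and 4.2 prior degrees of freedom), two-sided, with Benjamini-Hochberg adjustment over 12441 genes and a threshold of 0.05; "fell" and "rose" mean past it. The fit was tested on simulated data. Where several p follow each other, each is a limma adjusted p. Pairs of genes were tested by exact permutation over the libraries. Other steps ran in Python 3.11.15 (scipy 1.17.1, numpy 2.4.6, pandas 2.3.3, matplotlib 3.10.9).

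The members, gene lists, pairs and motifs were chosen with earlier results of these data known. Members called in a comparison were named in the order of the pathway, and of each other list the 3 called genes with the lowest adjusted p. The 23 alternatives counted beside single genes were other scalings, filters, an offset of 1 RPM, a replicate block, groups from the descriptions, the libraries without the 2 disputed ones, the number series of the titles, each library left out, and other eBayes and voom settings; stricter thresholds and fits of only the groups compared were also run. Reads of overlapping genes are uncertain without a known strand setting: exons of Tomm40l overlap Nr1i3 over 64.3%, Mtx1 overlaps Gm43737 over 21.2%, Pmpca Inpp5e over 20.4%, Pam16 Glis2 over 18.7% and Timm8b Nkapd1 over 15.6%.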

Additional observations from a re-analysis of the deposited data

Results flagged for a closer look

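In 14 members the DKO change differed from the sum of the MAX_KO and MYC_KO changes by the test of that difference itself (limma, interaction of both knock-outs, adjusted over all genes). The log2 departure was 0.97 in Hspe1, 0.93 in Timm13, 0.91 in Chchd4 and Timm9, 0.87 in Gfer, 0.81 in Timm8b and 0.75 in Tomm20. It was 0.68 in Tomm40, 0.67 in Hspd1, 0.65 in Tomm5, 0.64 in Timm44, 0.49 in Timm23, 0.47 in Tomm6 and 0.45 in Timm50. All 14 were positive: the DKO level was not as low as the single changes add up to. A like fall in each knock-out group gives a positive departure by arithmetic, so that the sign in part restates that members fell. The same HET libraries enter every one of these values, and both disputed libraries belong to DKO or MYC_KO under either reading.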

How the results depend on the processing

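No result changed direction while called. Without any single library, 4 to 11 members fell in DKO, 5 to 16 in MAX_KO, 10 to 19 in MYC_KO and 8 to 18 in the mean, and 0 to 1, 0 to 0, 0 to 0 and 0 to 1 rose. Between knock-outs 0 to 0 passed in each comparison, in the interaction 5 to 11, and 0 to 0 pairs. For the pairs that outcome was nearly fixed in advance and shows nothing about them. Without a library there are fewer than 28 splits, so that the smallest possible exact permutation p is above 0.0357. With quantile normalization 16 members fell in DKO. Groups from descriptions with the replicate block gave 17 lower in DKO. At an adjusted p of 0.01, 4, 6 and 11 fell in DKO, MAX_KO and MYC_KO, and with at least 1.5-fold 1, 5, 9 and 5 in DKO, MAX_KO, MYC_KO and the mean; 0 rose at either. With the same total per library 8 fell in MAX_KO, and 5, 2, 2 and 5 rose in DKO, MAX_KO, MYC_KO and the mean.

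The 2 higher calls in DKO became 1 with median-of-ratios scaling, log2 of RPM plus 1, no filter, descriptions with the replicate block, no trend, robust eBayes, voom weights and only the groups compared, and 0 with quantile normalization, the replicate block, descriptions, no disputed libraries and the 30s series alone. The higher call in MYC_KO became 0 with quantile normalization, no filter, the replicate block, no disputed libraries, no trend and only the groups compared, and that in the mean 0 with median-of-ratios scaling, quantile normalization, no filter, the replicate block and no disputed libraries. Between DKO and MYC_KO 1 member passed with the number series as a term, and between MAX_KO and MYC_KO 1 with that term and 1 in the 30s series. In the interaction 2 passed with the replicate block, 4 with descriptions, 8 without the disputed libraries and 5 at 0.01. CACGTG or CACGCG was in 14 members. The cause of these differences was not tested.

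The replicate numbers of the descriptions share only a number, and under the titles both DKO libraries carry the same one. Correlations were taken between libraries of different groups, on the log2 deviations of each library from the mean of its group. With 2 libraries a group these deviations mirror each other, so that each value occurs with both signs. Under the titles, deviations of same-numbered libraries correlated from -0.371 to 0.371. With the replicate block 11, 14, 15 and 20 members fell in DKO, MAX_KO, MYC_KO and the mean. Deviations of knock-out libraries of the same title series correlated at 0.315 to 0.371. The title numbers are in the 30s or 40s, which the labels do not call a batch. Taking the series as a term, 12, 17, 20 and 20 members fell. A further 329 values were followed, for single genes, pairs and other lists. Of their outcomes, 7716 kept the call or its absence, or a list count within 1.5 times. An uncalled value that changed sign was counted as kept. In the others 459 calls were lost, 111 were gained and 33 list counts moved by over 1.5 times. With 2 libraries a group and 14.88 to 17.91 M reads, small changes may be missed.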
